A study of Oryza sativa with 20 samples.

Results

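The genes described here are 129 rice (Oryza sativa) gene IDs whose transcript level was lower in heat-shocked shoots than in control shoots at 1 h, yet higher than in the controls at 10 h. They were chosen from 37248 gene IDs by the ratio of heated to control FPKM (sequenced fragments normalised for transcript length and for the mapped total), with 1 FPKM added to each value. The ratio had to be at most 0.5 at 1 h, above 0.6 at 10 min and at least 1.6 at 10 h. Where an ID stood on several rows, the row of highest mean FPKM was used. Of the 129 IDs, 4 pairs share a row with identical values in every group, so the 129 IDs stand for 125 distinct records.

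The shoots came from wild-type rice plants that were 2 weeks old. Potted plants were turned over and their shoots held for 10 min in water at 42 °C, or at 22 °C as the control, and then kept at 30 °C. Sampling times are counted from the start of the bath: 10 min (no recovery), 20 min (10 min of recovery), 1 h (50 min), 2 h (1 h and 50 min) and 10 h (9 h and 50 min). RNA levels were measured by RNA sequencing of whole shoots. Each of the 10 groups held 2 biological replicates of 3 pooled shoots, and the deposited table gives 1 value per group, so no value below carries an SD. Control shoots were also inverted and immersed, and their bath was cooler than the recovery chamber, so what the 42 °C bath did and what the cool bath, or the warming after it, did to the controls cannot be told apart.

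A heat shock makes plant cells transcribe chaperone genes at high rates while many other transcripts decline, through less transcription and faster decay. During recovery the chaperone transcripts decay and other transcripts return, some to their former level and some beyond it for a time. Many plant transcripts also follow the time of day, so a level after several hours has to be read against controls of the same hour. The deposited table pairs no ID with a gene name, and the reference table of gene names matched 0 of the 37248 IDs. The members are therefore described by level and time course, with no role given to any of them.

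The members were mostly genes of moderate expression. Their mean FPKM over the 10 groups ran from 0.428 to 4756 with a median of 13.8, against a median of 3.56 over the 34002 IDs above 0 FPKM in any group. A mean of at least 1 FPKM was reached by 127 members, or 98.4%, against 66.8% of the 34002 IDs. At least 5 FPKM was reached by 102 members and at least 100 FPKM by 13. With 1 FPKM added, a ratio of at most 0.5 at 1 h needs a control value of at least 1 FPKM. The lowest control value of a member at 1 h was 1.01 FPKM. The rule thus keeps out IDs of low expression, and the higher level of the members is set in part by it. In 3 members the heated value at 1 h was listed at exactly 0, which in a table without counts can be a failed estimate. The table holds no counts, so the depth of the libraries is unknown.

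The values that chose the members are given first, as a description. At 1 h the median member stood at 4.77 FPKM in heated shoots and at 13.5 FPKM in controls, and the median ratio was 0.423, with quartiles of 0.364 and 0.459 and a lowest ratio of 0.134. At 10 h the median was 25.9 FPKM in heated shoots and 13.4 FPKM in controls, and the median ratio was 1.83, with quartiles of 1.70 and 2.10 and a highest ratio of 4.56. At 10 min the heated and control medians were 7.89 and 10.7 FPKM, with a median ratio of 0.888. In whole shoots, fewer cells of a type and less RNA per cell cannot be told apart, and adding 1 FPKM understates the ratios of low members. Heated shoots held the lowest of the 10 group medians at 1 h and the highest at 10 h. At the edges of the rule, a member with 7.25 FPKM after heat and 15.5 FPKM in controls had a 1 h ratio of 0.5, and the nearest ID outside had 0.501. For the 10 h threshold the nearest values were 1.6001 inside and 1.599 outside, and for the 10 min threshold 0.606 inside and 0.594 outside.

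**Figure D1:**
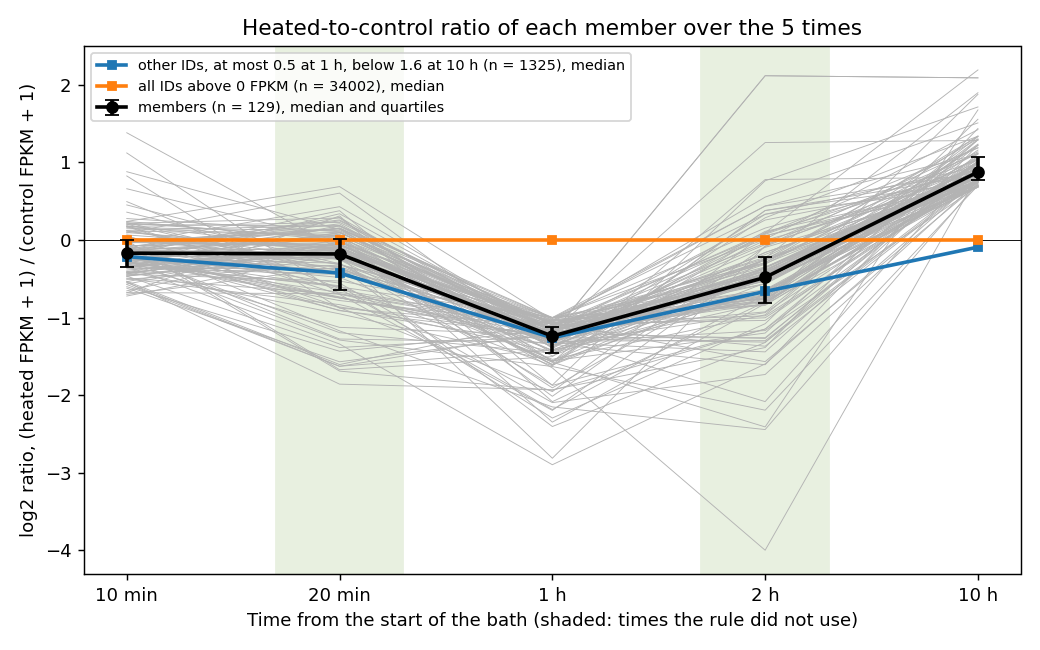
Log2 ratio of heated to control FPKM, with 1 FPKM added to each, at the 5 sampling times (evenly spaced, not to scale) for each of the 129 members (grey lines), with the members' median and quartiles (black), the median of 1325 IDs that met the rule at 10 min and 1 h but not at 10 h (blue) and the median of all 34002 IDs above 0 FPKM (orange). The members spread from -1.86 to 0.69 at 20 min and from -4.00 to 2.11 at 2 h, the shaded times whose ratios the rule did not use.

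Not every member carried a statistical call at the times that chose it. A call here means a q value below 0.05 in the authors' deposited table, where q is printed to 2 decimals. At 1 h 84 of the 129 members were called lower in the authors' deposited table, where 6.06% of all IDs above 0 FPKM were called lower. At 10 h 57 members carried a call of a higher level in the authors' deposited table, against 1.99% of all IDs. Both calls together were held by 53 members, 31 held the 1 h call alone, 4 the 10 h call alone and 41 neither, by the authors' deposited table. The 53 had a median mean level of 21.3 FPKM and the 41 without either call one of 5.71 FPKM. Since the same contrasts chose the members, these counts describe them and are no evidence of a fall or a rise. The name fall and rebound thus refers to the ratio between the arms at 1 h and 10 h, and 53 of the 129 carried both calls.

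**Figure D2:**
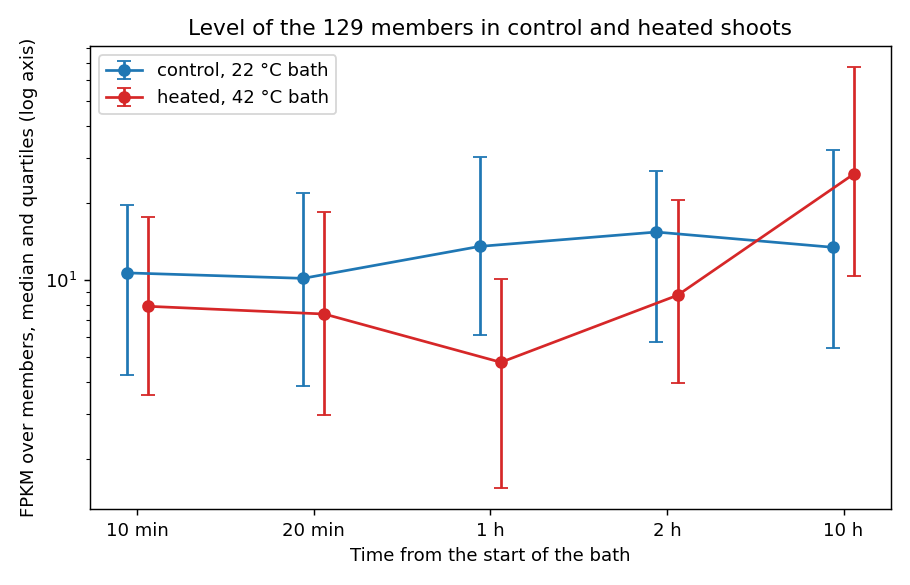
FPKM over the 129 members in control shoots (blue) and heated shoots (red) at the 5 times (evenly spaced), as median with quartiles on a log axis; bars show spread between genes, not between replicates. The heated median goes from 7.36 at 20 min to 4.77 at 1 h, 8.71 at 2 h and 25.9 at 10 h, while the control medians stay between 10.1 and 15.4.

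The ratios at 20 min and 2 h took no part in choosing the members, and share no control group with the times that did. The levels at these times entered only the mean that picked the row of an ID with several rows, as 38 members have. At 20 min, after 10 min of recovery, most members stood somewhat lower in heated shoots than in controls. The median level was 7.36 FPKM after heat and 10.1 FPKM in controls. The median log2 ratio over the members was -0.18, against 0 over all 34002 IDs and -0.06 over those averaging at least 1 FPKM. The ratio was below 1 in 95 members, or 73.6%, and above 1 in 33. It lay at 0.5 or less in 15, or 11.6%. Of IDs averaging at least 1 FPKM, 55.6% had a ratio below 1 and 6.25% one of 0.5 or less. By the authors' deposited table, 11 of 129 members, or 8.53%, were called lower at 20 min, where 4.34% of all IDs above 0 FPKM and 6.25% of those averaging at least 1 FPKM were. The authors' deposited table called none of the members higher, where 2.9% of all IDs were. The share called lower thus stood close to that of all expressed IDs, and the difference was not tested.

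At 2 h most members were still below their controls. The median was 8.71 FPKM in heated shoots and 15.4 FPKM in controls. The median log2 ratio was -0.48, again against 0 over all IDs, and against -0.01 over those averaging at least 1 FPKM. In 106 members, or 82.2%, the ratio was below 1 and in 23 above it. Of IDs averaging at least 1 FPKM, 50.6% had a ratio below 1. The authors' deposited table called 24 of 129 members, or 18.6%, lower at 2 h, where 4.91% of all IDs above 0 FPKM and 6.98% of those averaging at least 1 FPKM were called lower. Only 1 member was called higher in the authors' deposited table, where 8.44% of all IDs were. The 24 called members had 2 h ratios of 0.0626 to 0.590. The lowest ratio of the time course came at 2 h rather than 1 h in few cases: the 2 h ratio was below the 1 h ratio in 11 members, 8 of them among the 24.

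The calls at the 2 times overlapped in part. By the authors' deposited table, 4 members were called lower at both 20 min and 2 h, 7 at 20 min and not at 2 h, 20 at 2 h alone, and 98 at neither time. The 4 called at both times included the member OS10G0533100, picked here after its values were seen because it was the most abundant of the 4. It stood at 216 FPKM in controls and 111 FPKM after heat at 20 min, and at 337 and 146 FPKM at 2 h, and the authors' deposited table prints a q of 0.01 at 20 min and of 0.0 at 2 h. At 10 h its order was turned, at 31.4 FPKM in controls and 78.3 FPKM after heat. Its levels were thus highest in the controls at 2 h and lowest in the controls at 10 h.

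**Figure D3:**
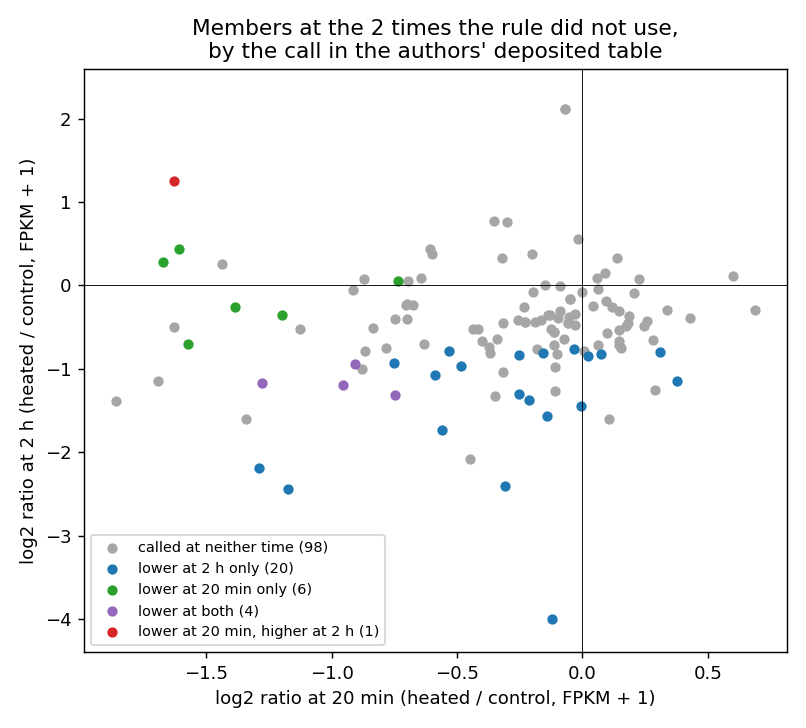
Log2 ratio of heated to control FPKM (1 FPKM added) at 20 min (horizontal) and 2 h (vertical), 1 point per member, coloured by the call in the authors' deposited table; points of members that share a record overlie each other. Most points lie below 0 at 2 h, and 98 members were called at neither time.

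Members differed in how far they had returned by 2 h. The 2 h ratio was at most 0.5 in 24 members, between 0.5 and 0.8 in 62, between 0.8 and 1.2 in 30 and over 1.2 in 13. The heated level moved between 20 min and 2 h by a median factor of 0.670 in the first of these classes and of 1.01, 1.24 and 2.24 in the others, while the controls moved by 1.34, 1.36, 1.24 and 1.05. The median 10 h ratio was 1.84, 1.82, 1.88 and 2.14 in the same order. The class over 1.2 was also the lowest in expression, with a median mean level of 3.62 FPKM, against 13.7 FPKM in the class of at most 0.5. Since the classes were formed from the 2 h ratio, the part of these steps that the 2 h values set is fixed by that choice.

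The members with the lowest 2 h ratios were OS01G0382000 and OS07G0614700. OS01G0382000 stood in controls at 1.09, 0.37, 4.27, 40.6 and 2.46 FPKM from the first sampling to the last. In heated shoots it stood at 4.44, 0.26, 0.68, 1.6 and 5.17 FPKM. The high control value at 2 h had no counterpart after heat, and the log2 ratio at that time was -4.00, for which the authors' deposited table prints a q of 0.0. This member was also the only one of the 129 called at 10 min, where 1.36% of all IDs were called higher, and the authors' deposited table gives q = 0.03 for it. Its 10 h difference, which helped choose it, had q = 0.15 in the authors' deposited table.

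OS07G0614700 followed a simpler course. Its control values were 7.94, 10.4, 11.4, 8.9 and 4.92 FPKM from 10 min to 10 h, and its heated values were 7.71, 4.06, 1.79, 0.82 and 8.82 FPKM. After heat the level was thus lower at each time up to 2 h than at the time before. The log2 ratio was -1.17 at 20 min, and -2.44 at 2 h, for which the authors' deposited table prints q values of 0.12 and 0.0. At 10 h the heated value exceeded the control value, with q = 0.41 in the authors' deposited table.

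At the other end stood OS06G0335950 and OS01G0222600. OS06G0335950, whose record is shared with a second ID of the 129, was low in controls and, up to 1 h, in heated shoots. Controls held 0.19, 0.27, 1.38, 0.75 and 1.56 FPKM and heated shoots 0.17, 0.21, 0.03, 6.58 and 9.88 FPKM. Its log2 ratio at 2 h was 2.11, with q = 0.07 in the authors' deposited table, so the difference at 2 h was not called. OS01G0222600 was the member called higher at 2 h. Controls held it at 32.6, 62.8, 57.5, 42.5 and 224 FPKM, and heated shoots at 21.6, 19.6, 24.7, 103 and 546 FPKM. The order of the arms had turned by 2 h: the log2 ratio was -1.63 at 20 min and 1.25 at 2 h, and the authors' deposited table prints a q of 0.0 for both.

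The most abundant member was OS07G0529600, picked after its values were seen. Controls held it at 3960, 8132, 8186, 11696 and 105 FPKM from the first sampling to the last, and their 2 h value was the highest of any ID in that control group. Heated shoots held it at 3096, 5967, 3447, 2759 and 212 FPKM. Both arms were lower at 10 h than at any earlier time, and the heated excess at 10 h was therefore an excess of a small remaining level. At 2 h the log2 ratio was -2.08, yet with q = 0.16 in the authors' deposited table it was not called. The authors' deposited table prints a q of 0.8 at 20 min, 0.37 at 1 h and 0.0 at 10 h.

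**Figure D4:**
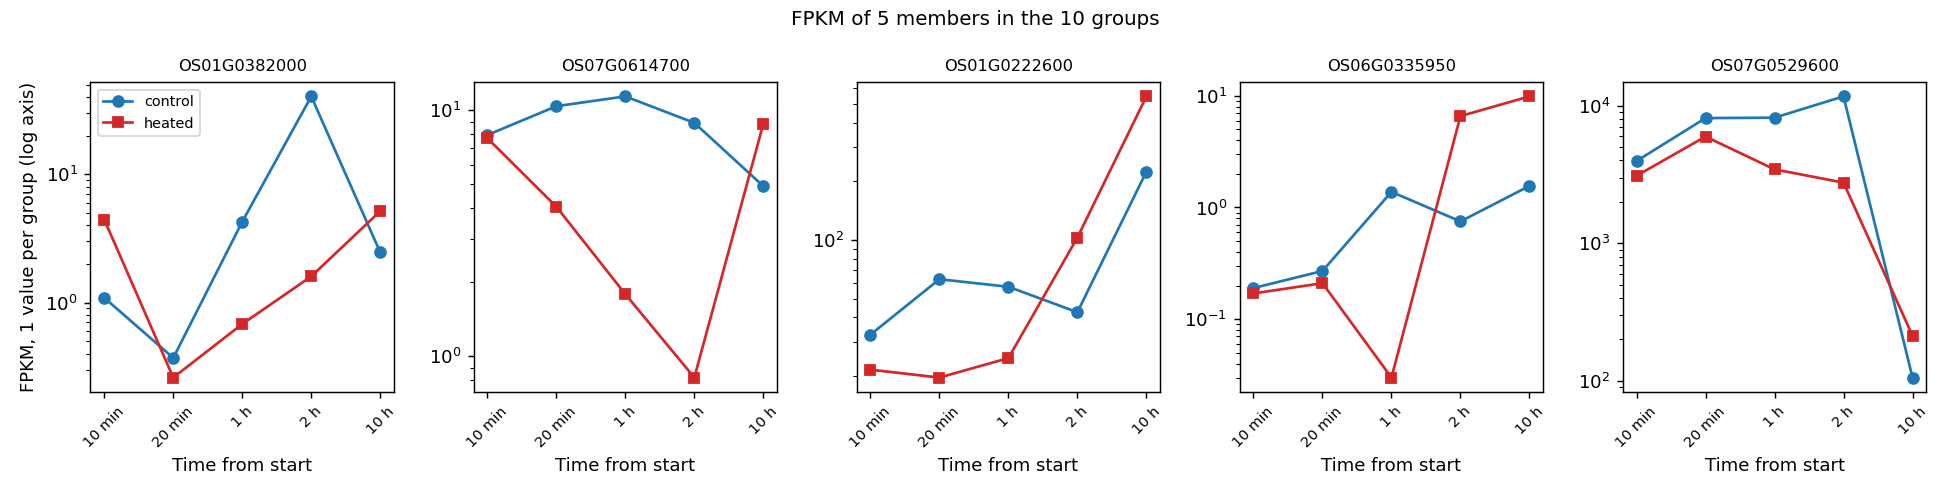
FPKM of the 5 members in control (blue circles) and heated shoots (red squares) at the 5 times (evenly spaced), 1 value per group, on log axes that differ between panels. Heated values lie below control values at 1 h and above them at 10 h in all 5, as the rule requires, and at 2 h they lie below in 3 and above in 2.

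A single member weighed on summed levels. The members together held 16532 FPKM in the 2 h controls and 6203 FPKM in the 2 h heated shoots, or 2.42% and 0.785% of the FPKM of all IDs. Without OS07G0529600 the sums were 4837 and 3444 FPKM, or 0.709% and 0.436%. At 20 min the sums without it were 3884 FPKM in controls and 2912 FPKM after heat. At both unused times the direction of the sums was thus the same with and without that member, while the ratio at 2 h was nearer to 1 without it.

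Which arm moved could be read within each arm. From 20 min to 1 h the level in heated shoots went down in 110 members and up in 19, with a median factor of 0.638, and in controls it went up in 108 and down in 21, with a median factor of 1.28. In 19 members a low ratio at 1 h therefore stood beside a heated level that had gone up. Of the 22704 IDs averaging at least 1 FPKM, 11381 went down in heated shoots and 12328 went up in controls over this interval. Their median factors were 0.998 in heated shoots and 1.02 in controls. Heated shoots at 1 h lay below the heated values of both 20 min and 2 h in 98 members, or 76.0%, against 29.9% of all IDs above 0 FPKM. Controls at 1 h lay above those of both neighbouring times in 59 members, or 45.7%, against 29.2% of all IDs. Of IDs averaging at least 1 FPKM the shares were 34.0% for heated shoots and 33.4% for controls. The rule favours a low heated and a high control value at 1 h, so the members' shares exceed the others in part by construction.

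Between 20 min and 2 h, times whose ratios the rule did not use, controls drifted upward in most members. The control level was higher at 2 h than at 20 min in 101 of 129 members, with a median factor of 1.32, and at least 2-fold higher in 12, or 9.30%, against 1.69% of all IDs. In heated shoots it was higher in 70 and lower in 59, with a median factor of 1.06. It was at least 2-fold higher there in 21, or 16.3%, against 9.95% of all IDs. Of IDs averaging at least 1 FPKM, 2.24% were at least 2-fold higher in controls and 13.8% in heated shoots. Higher at all were 12475 of these 22704 IDs in controls and 12512 in heated shoots. Their median factors were 1.03 in controls and 1.06 in heated shoots. The 1325 IDs that met the rule at 10 min and 1 h but not at 10 h had a median control factor of 1.09 and a median heated factor of 0.945 over the same interval. No test was made of these differences, since each group has a single value.

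The step from 2 h to 10 h was larger in the heated arm than in the controls in 127 of 129 members. This says only that their 10 h ratio was above their 2 h ratio. The rule requires at least 1.6 at 10 h, and 5 members had such a ratio at 2 h, so the count was largely fixed by the rule. The exceptions were OS06G0335950 and the ID that shares its record, with ratios of 4.33 at 2 h and 4.25 at 10 h. Heated shoots were higher at 10 h than at 2 h in 120 members, and the median factor was 3.10. They were at least 2-fold higher in 90, or 69.8%, against 10.3% of all IDs and 14.8% of those averaging at least 1 FPKM. Controls were higher at 10 h in 75 members and lower in 54, with a median factor of 1.2. Of the 22704 IDs averaging at least 1 FPKM, 11528 were higher at 10 h in heated shoots and 12167 in controls. Their median factors were 1.01 and 1.03. At least 2-fold changes in controls went both ways, upward in 19 members and downward in 17, or 14.7% and 13.2%. The shares were 4.49% and 4.46% of all IDs, and 6.42% and 6.40% of those averaging at least 1 FPKM. All 19 members with a 2-fold higher control level were also at least 2-fold higher in heated shoots, and 71 further members were so in heated shoots alone. The rule selects a high heated value at 10 h, which sets part of this step.

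**Figure D5:**
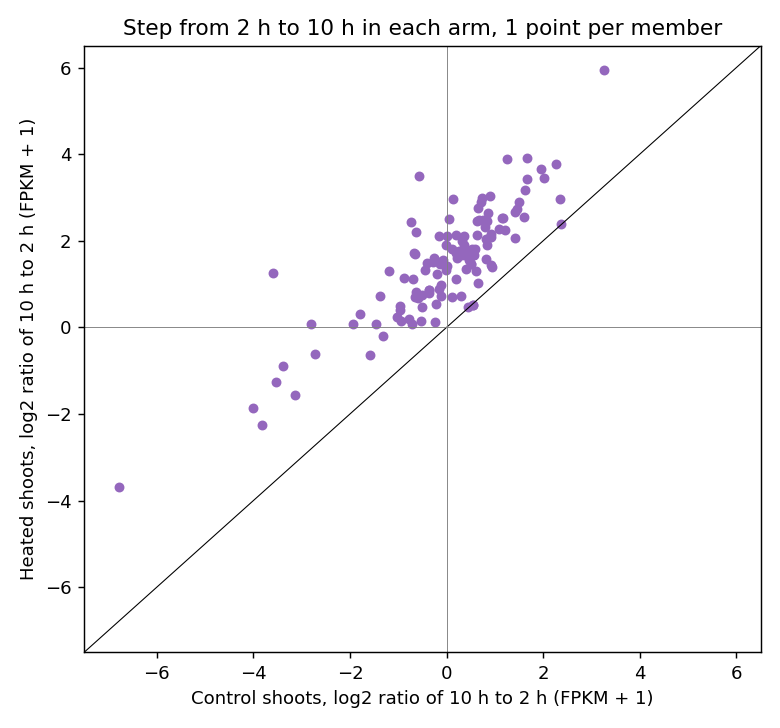
Log2 ratio of the 10 h to the 2 h level (1 FPKM added) in control shoots (horizontal) and heated shoots (vertical), 1 point per member, with the line of equal steps. The control step ran from -6.78 to 3.25 and the heated step from -3.69 to 5.95. Of the 129 points 127 lie above the line, which the 10 h bound of the rule largely fixes.

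The rule fixes a 10 h excess in every member, but not the course of the controls beneath it. In the 19 members whose controls were at least 2-fold higher at 10 h than at 2 h, the control median went from 8.23 to 29.1 FPKM and the heated median from 5.71 to 68.8 FPKM. In the 93 members whose controls stayed within 2-fold, the control median was 13.5 FPKM at both times and the heated median went from 7.93 to 25.5 FPKM. In the 17 whose controls were at least 2-fold lower at 10 h, the control median went from 28.5 to 5.46 FPKM and the heated median from 15.9 to 9.58 FPKM. Over all 129 members, 9 had a lower heated level at 10 h than at 2 h, so that only their ratio, not their level, was higher at 10 h. The 17 held 9 of the 24 calls of a lower level at 2 h in the authors' deposited table, and their median 2 h ratio was 0.526, against 0.734 in each of the other classes. A high control value at 2 h both places a member among the 17 and lowers its 2 h ratio, so this contrast is set in part by the split.

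The highest level of all 10 groups was that of heated shoots at 10 h in 101 members, or 78.3%. The share was 19.9% of all IDs above 0 FPKM and 23.6% of those averaging at least 1 FPKM. In 102 members, or 79.1%, heated shoots at 10 h lay above every control group. In 105, or 81.4%, heated shoots at 1 h lay below every control group, and in 95 both held. Among all 34002 IDs, 27.1% lay above every control at 10 h and 28.0% below every control at 1 h, and in 3396 both held. Of IDs averaging at least 1 FPKM the shares were 31.6% and 34.7%. The 1325 IDs without the 10 h rise lay below every control at 1 h in 84.6% and above at 10 h in 17.6%. Another 1433 IDs met the rule at 10 min and 10 h but not at 1 h. Of these, 82.9% lay above every control at 10 h and 29.4% below at 1 h. The 1 h and 10 h values took part in the choice and are given as description.

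Set beside other genes that met the rule at 10 min and 1 h, the members were nearer to their controls at both unused times. The 1325 IDs with a 10 h ratio below 1.6 had a median log2 ratio of -0.43 at 20 min and -0.66 at 2 h, against -0.18 and -0.48 in the members. By the authors' deposited table, 186 of the 1325, or 14.0%, were called lower at 20 min, and 403, or 30.4%, at 2 h, against 8.53% and 18.6% of the members. At 1 h, which chose both sets, their median ratios were 0.417 and 0.423. The difference at the unused times was not tested.

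Some of the members' IDs had further rows in the table, which the rule did not use, though their reads come from the same locus. Further rows numbered 54 under 38 IDs, and 22 of these rows reached a mean of 1 FPKM. Of the 22 rows, 19 had a ratio below 1 at 1 h and 17 a ratio above 1 at 10 h, but only 2 met the whole rule.

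In the naming scheme of rice gene IDs the digits after OS give the chromosome. Chromosome 3 held 21 members, or 16.3%, against 12.4% of all IDs above 0 FPKM, and chromosome 12 held 1 member, or 0.775%, against 5.59%. The other chromosomes held 5 to 17 members each. Only 1 pair of members with different records carried IDs that neighbour each other in the table.

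FPKM is a share of each library, and the summed FPKM over IDs was 1201020 in heated shoots and 841078 in controls at 1 h. The median log2 ratio of the 22704 IDs with a mean of at least 1 FPKM was -0.08 at 1 h and 0.03 at 10 h. When each group was rescaled by its median ratio over 10891 IDs above 5 FPKM in every group, the members' median log2 ratio went from -1.24 to -1.19 at 1 h and from 0.87 to 0.83 at 10 h, and 101 of the 129 still met the rule.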

How the data were processed

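Expression of 20 rice shoot libraries in 10 groups was used as FPKM values deposited by the authors, 1 column per group, so replicates had been combined before deposit. Per the submitters' processing notes, cutadapt, TopHat2 and Cufflinks were used with the genome build IRGSP-1.0; no source used here gives versions, annotation, strand or filters. The q-values and log2 fold changes are the authors' own, per the file headers, and no source used here names the test behind them. In 0 cases did a member's deposited log2 fold change differ by over 0.1 from that of its FPKM values, where both groups reached 1 FPKM.

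From the 48683 rows, the row of highest mean FPKM was kept for each ID, and ratios were computed with 1 FPKM added (Python 3.11.15, pandas 2.3.3). The computation of the rule was checked on simulated data with planted members. The planting set that outcome, so it does not show how often the rule picks noise in these data. A fit over libraries, planned for the case of values per library, was not possible, so no p-value was computed here; calls rest on the authors' q below 0.05, and sets of IDs are described by counts and medians. The members, thresholds and lists were chosen with earlier results of these data known. The named members are those with the 2 lowest and 2 highest ratios at 2 h; OS10G0533100 and OS07G0529600 were added after their values were seen. Likeness to other genes was not computed, since a profile has 5 points. The 25 gene lists and 3 marker lists, planned by gene description, were not formed, so the shoot label was not checked against markers.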

Additional observations from a re-analysis of the deposited data

How the results depend on the processing

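With a pseudocount of 0.1 the rule found 388 IDs, 124 of them among the 129. Of the 388, the authors' deposited table called 16 lower and 2 higher at 20 min, and 35 lower and 4 higher at 2 h. The 16 and 35 of 388 are smaller shares than the reported 11 and 24 of 129. A rule with a ratio of at most 0.4 at 1 h and at least 2 at 10 h found 20, of which the authors' deposited table called 2 lower at 20 min, 7 lower at 2 h and 0 higher at 2 h, with median log2 ratios of -0.36 at 20 min and -0.82 at 2 h. At q below 0.01, 5 members were called lower at 20 min and 14 lower at 2 h by the authors' deposited table. The share of all IDs at that cut-off was not computed, so these counts have no background beside them. Keeping the 53 members called at both 1 h and 10 h, an alternative chosen after seeing the data, left 14 called lower at 2 h in the authors' deposited table. At q below 0.05, 4.34% of all IDs above 0 FPKM were called lower at 20 min and 4.91% at 2 h. Called higher were 2.9% at 20 min and 8.44% at 2 h. Of the recomputed values, 50 stayed within 1.5 times the reported count or within 0.1 of the reported median log2 ratio, and 13 did not. No median changed sign. Counts were compared without regard to the size of the set. Rescaling the groups with the 129 members kept could not change their number, and it reused the same q values. The 50 are therefore no measure of robustness. Why the 13 moved was not tested, except that the stricter rules keep fewer IDs by construction. No paired analysis was possible because both libraries of a group stand under 1 value, and leaving out a replicate was not run for the same reason. Depth is unknown, so the members' differences have no counting error to set against them. With rows summed per ID the rule found 123 IDs, 116 of them among the 129.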
